A study of Mus musculus with 2 samples.

Results

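The genes described here are 49 genes of the epithelial barrier, comprising 20 tight junction membrane proteins, 11 junction scaffold or polarity proteins, 5 adherens junction or cell adhesion proteins, 6 desmosome proteins and 7 mucus proteins. They were taken as a named list and not for any measured value, and every listed H3K36me2 peak whose annotated gene was on the list was counted for them. This gave 28 of the 19976 peaks in the library of *Nsd2* fl/fl mice (here fl/fl) and 47 of the 23518 peaks in that of *Nsd2* ΔIE mice (here ΔIE). The libraries came from the colon of male C57BL/6J littermates on a high-fat cholesterol diet (HFCD), which began at 7 to 8 weeks of age and lasted 16 weeks by the deposited design text and 18 weeks by the methods of the study. *Nsd2* fl/fl mice carry the floxed *Nsd2* alleles without the deletion, and *Nsd2* ΔIE mice carry the same alleles deleted by a Villin-Cre transgene, which acts in the intestinal epithelium. Each genotype had 1 library, so nothing was tested between them and no difference has a replicate behind it. The tissue was whole colon, in which Villin-Cre leaves immune, stromal and nerve cells undeleted, and fewer cells of a type cannot be told apart from less mark per cell.

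Tight junctions close the gap between neighbouring epithelial cells. Claudins, occludin and the junctional adhesion molecules span the membrane, the zonula occludens proteins tie them to actin, and the Par and Magi proteins place the junction at the apical side. Adherens junctions and desmosomes below them carry the mechanical load, and goblet cells cover the epithelium with a gel built from the mucin Muc2. NSD2 writes H3K36me2, dimethylation of lysine 36 of histone H3, a mark that spreads over gene bodies and intergenic chromatin and is read here by CUT&Tag, in which an antibody directs the transposase Tn5 to the marked chromatin. A listed peak shows where the mark was called and is not a measure of expression.

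A listed peak was found at 23 of the 49 genes in fl/fl (46.9%) and at 26 in ΔIE (53.1%), against 30.9% and 32.9% of 21900 protein-coding genes. At 17 genes (34.7%) both libraries had a peak, against 20.4% of the protein-coding genes. A peak was listed only in fl/fl at 6 genes, namely *Cldn4*, *Cldn10*, *Cldn12*, *Marveld2*, *Dsp* and *Agr2*. Another 9 genes had one only in ΔIE, namely *Cldn15*, *Cldn18*, *Marveld3*, *F11r*, *Tjp3*, *Magi3*, *Ctnna1*, *Epcam* and *Jup*. Among the 32 barrier genes with a peak, the 6 and 9 made 18.8% and 28.1%. Of all 18187 genes with a peak, which are not all protein-coding, 25.2% had one only in fl/fl and 31.5% only in ΔIE. For protein-coding genes with a peak it was 24.1% and 28.7%. The remaining 17 genes had no listed peak in either library, so every role held barrier genes with and without a listed peak.

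Barrier genes are long, with a median length of 28.9 kb against 17.1 kb for all protein-coding genes, and longer genes more often held a peak. Among genes under 10 kb, 6 of 10 barrier genes had a peak in at least 1 library, against 30.4% of all such genes. From 10 to 50 kb it was 14 of 20 against 46.9%. From 50 to 100 kb it was 5 of 10 against 52.0%, and over 100 kb it was 7 of 9 against 63.6%. The share of barrier genes thus lay above that of all genes in 3 of the 4 length classes, with 9 to 20 barrier genes in a class.

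**Figure D1:**
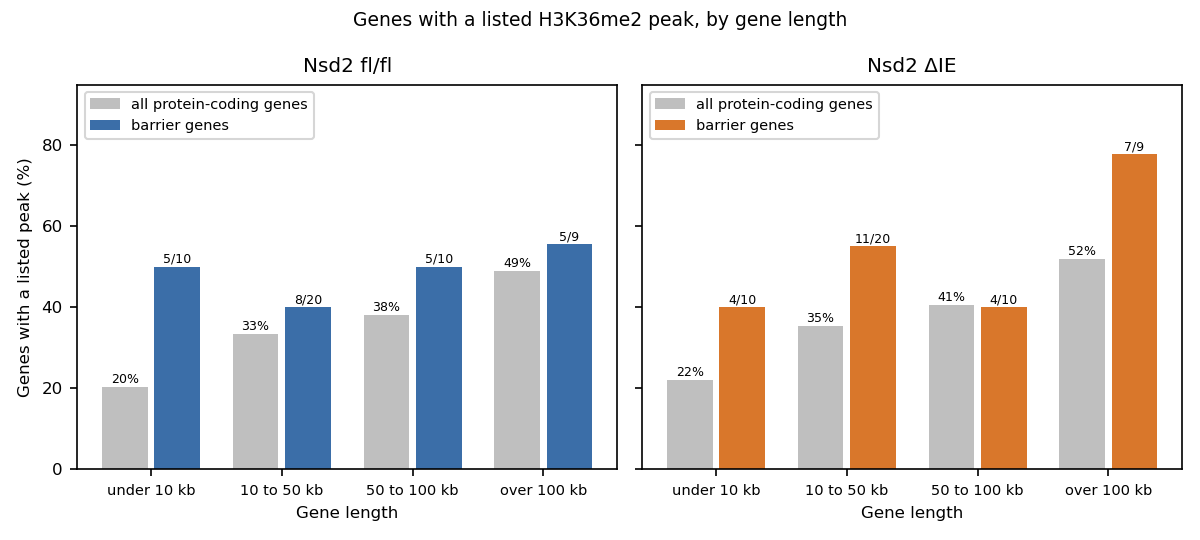
Percent of genes with at least 1 listed H3K36me2 peak (vertical axis) by gene length (horizontal axis), for all protein-coding genes (grey, percent above the bar) and the 49 barrier genes (coloured, count of genes above the bar), 1 library in each panel. The barrier genes stand higher than all genes in every class of the fl/fl panel and in all but the 50 to 100 kb class of the ΔIE panel, where 4 of 10 had a peak.

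The length covered by the peaks of a gene, which is the sum of their widths, was compared between the libraries as the log2 ratio of ΔIE to fl/fl. A ratio below -0.5, or a peak in fl/fl only, was counted as less length in ΔIE, and a ratio above 0.5, or a peak in ΔIE only, as more. By this rule 11 of the 32 barrier genes with a peak had less length (34.4%) and 13 had more (40.6%), against 43.3% and 39.7% of all 18187 genes with a peak. For protein-coding genes with a peak it was 43.8% and 37.6%. The remaining 8 barrier genes were within the limit. The balance turned with the scaling, with 13 less and 12 more for equal numbers of peaks and 9 less and 16 more for ratios centred on the median of all genes. All genes gave 8375 less and 6108 more for equal numbers of peaks, and 6827 less and 7997 more for centred ratios. Over the 17 genes with peaks in both libraries the median log2 ratio was -0.17, against -0.32 over 7870 genes, with 9 ratios below 0 and 8 above. The lowest was -1.21 at *Pkp3* and the highest 1.82 at *Cgnl1*. The ratios lay on both sides of 0 and of the median over all genes, which 7 of the 17 were below.

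**Figure D2:**
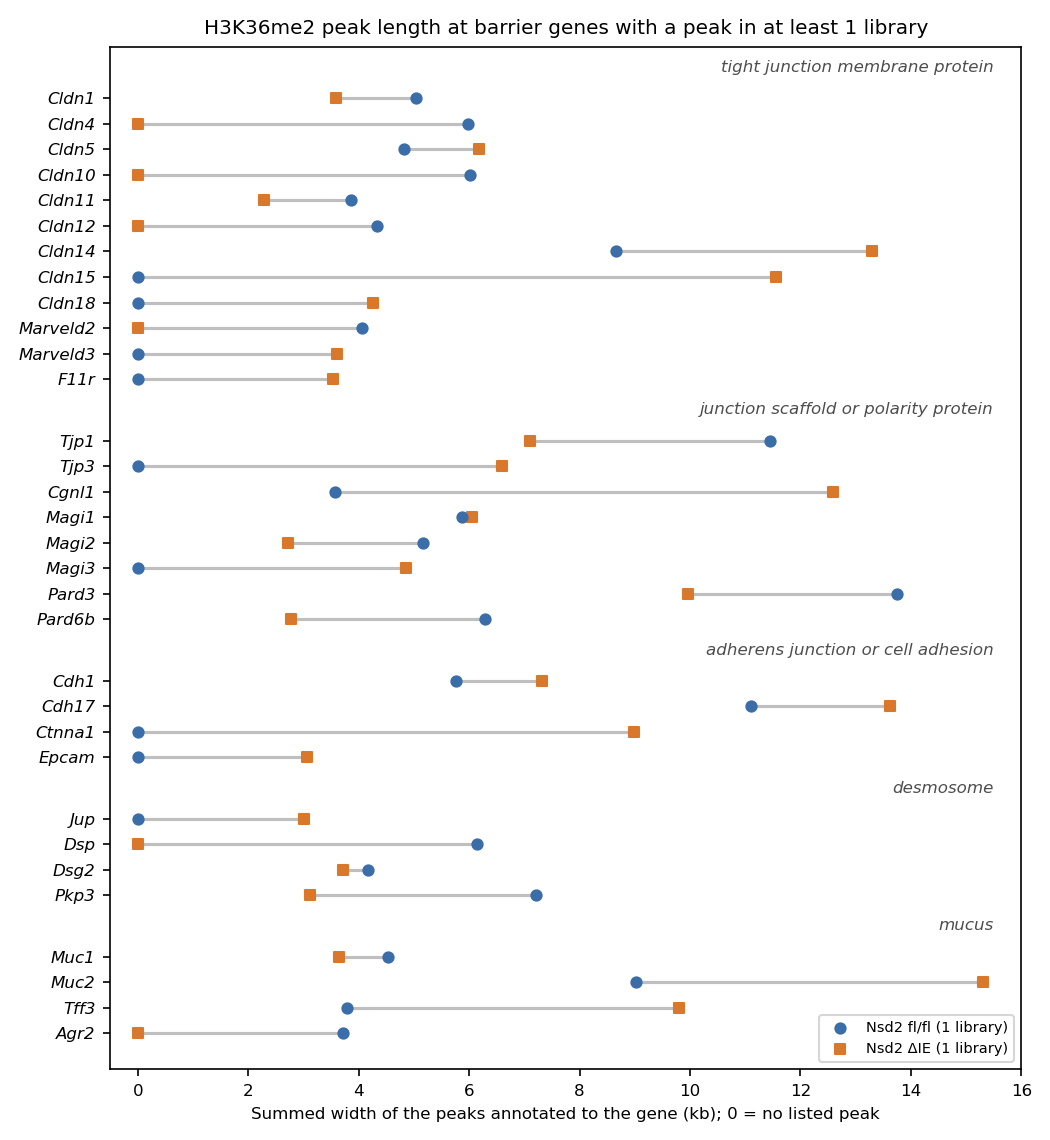
Summed width in kb of the peaks annotated to each of the 32 barrier genes with a peak (horizontal axis), by role, in fl/fl (blue circles) and ΔIE (orange squares), with a grey line joining the values of a gene and 0 standing for no listed peak. Neither genotype lies to the right throughout, and *Cgnl1*, *Cldn15*, *Muc2* and *Cldn4* show the spread from 0 to 15304 bp.

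The peaks of barrier genes looked like those of their list. Their median width was 5013 bp in fl/fl and 3583 bp in ΔIE, against 4643 bp and 3426 bp over the whole lists. The summed signal that the authors give for a peak, divided by its width, had a median of 6.27 per bp in fl/fl and 6.57 per bp in ΔIE, against 6.14 and 6.32. No barrier gene held a peak denser than 9.14 per bp in fl/fl or 9.59 per bp in ΔIE. Many lay near the lower limit of their list, with 7 of 28 (25.0%) and 14 of 47 (29.8%) within 10% of the lowest signal, against 25.4% and 26.0% of all peaks. A gene without a peak may thus carry signal just under that limit, and the depth of the libraries is unknown.

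**Figure D3:**
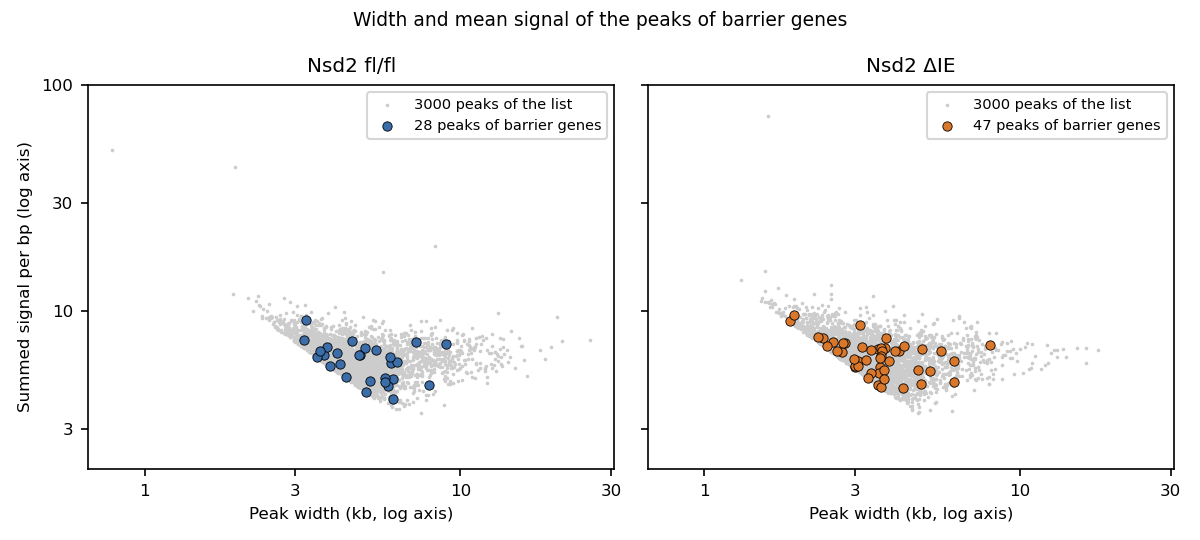
Width in kb (horizontal, log axis) and summed signal per bp (vertical, log axis) of the peaks of barrier genes (coloured) and of 3000 peaks drawn from the same list (grey), in fl/fl (left, 28 peaks) and ΔIE (right, 47 peaks). The coloured points fall inside the grey cloud in both panels, between 4.06 and 9.14 per bp in fl/fl and between 4.54 and 9.59 per bp in ΔIE.

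The overlap between the libraries was near that of all peaks. In fl/fl 9 of 28 overlapped a peak of the other list by at least 1 bp (32.1%, exact 95% interval 15.9% to 52.4%), against 34.1% of all peaks. In ΔIE it was 11 of 47 (23.4%, 12.3% to 38.0%), against 30.7%. These intervals cover counting error only. Among the strongest 50% of each list the shares were 43.8% in fl/fl (7 of 16) and 36.4% in ΔIE (8 of 22), above the 31.8% and 28.4% of all such peaks, so the order against all peaks turned with the strength of the peaks. The overlaps made 9 pairs in 8 genes, *Cdh17* with 2 and *Cldn5*, *Cldn14*, *Pard6b*, *Pkp3*, *Muc1*, *Muc2* and *Tff3* with 1 each. The positions of maximum signal in a pair were 114 to 6104 bp apart, with a median of 1711 bp. Of the peaks without a partner, 5 of 19 in fl/fl and 10 of 36 in ΔIE had a peak of the other library within 10 kb. Of the 17 genes with a peak in both libraries, 9 had no overlapping pair of peaks annotated to them, although *Cdh1* and *Magi1* among these held an overlapping pair annotated to another gene.

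At promoters, drawn by the authors as 3 kb on each side of the transcription start site (TSS), lay 7 of 28 peaks in fl/fl (25.0%, 10.7% to 44.9%) and 12 of 47 in ΔIE (25.5%, 13.9% to 40.4%), against 32.1% and 27.9% of all peaks. Introns held 10 (35.7%) and 16 (34.0%), against 21.0% and 23.6%, and exons 3 (10.7%) and 10 (21.3%), against 16.5% and 17.4%. Distal intergenic peaks numbered 3 (10.7%) and 4 (8.51%), against 18.01% and 20.13%. In number, 62.7% of the 75 barrier gene peaks came from ΔIE (50.7% to 73.6%), against 54.1% of all peaks. Barrier gene peaks were narrower in ΔIE, but their total length was 144257 bp in fl/fl and 172547 bp in ΔIE. Over all peaks it was 102992493 bp in fl/fl and 88118230 bp in ΔIE.

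Of the 20 tight junction membrane proteins, 8 had a peak in fl/fl and 8 in ΔIE, but only *Cldn1*, *Cldn5*, *Cldn11* and *Cldn14* had one in both. At *Cldn1*, a sealing claudin of the epithelium, the peaks lay on either side of the TSS. In fl/fl the peak ran from 6895 to 1867 bp upstream of it (chromosome 16, 26192456 to 26197484). In ΔIE it ran from 32 to 3614 bp downstream of it (chromosome 16, 26186975 to 26190557). A gap of 1898 bp separated them, and both were weak, at 1.01 and 1.15 times the lowest signal of their lists. *Cldn1* thus had promoter peaks of 5029 and 3583 bp (log2 ratio -0.49) that share no base.

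*Cldn5*, the main claudin of endothelial cells, had a promoter peak in both libraries. It ran from 16 bp upstream to 4803 bp downstream of the TSS in fl/fl (chromosome 16, 18595581 to 18600400) and from 2675 bp upstream to 3495 bp downstream in ΔIE (chromosome 16, 18592922 to 18599092). The overlap was 3512 bp, the whole gene of 1.42 kb lay inside both peaks, and the log2 ratio of their widths was 0.36. Of the claudins among the 49 genes, *Cldn5* was the only one with overlapping promoter peaks annotated to it in both lists.

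*Cldn4*, a claudin of the colon surface epithelium, had a peak of 5971 bp in fl/fl, from 945 bp upstream to 5025 bp downstream of the TSS (chromosome 5, 134970763 to 134976733), and none in ΔIE. The nearest peak of the ΔIE list was 79312 bp away. This peak ranked 3647 of 19976 by summed signal, at 1.71 times the lowest. *Cldn3*, its neighbour on the chromosome and another barrier-forming claudin, had no peak in either library.

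*Cldn15*, which forms cation channels in the intestine, had the strongest peak of all barrier genes in ΔIE. This peak was 8009 bp wide (chromosome 5, 136991639 to 136999647), ran from 5084 bp upstream to 2924 bp downstream of the TSS, and ranked 379 of 23518. A further peak of 3542 bp, at 1.01 times the lowest signal, covered the end of the gene. In fl/fl a peak of 3250 bp lay wholly inside the upstream part of the promoter peak, 5044 to 1795 bp from the TSS, but was annotated to the neighbouring gene *Fis1*. The mark was thus called upstream of *Cldn15* in both libraries and over its start only in ΔIE.

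Sequences upstream of the start are shown for 5 genes whose promoter peaks differ in kind: *Cldn1* (peaks on either side), *Cldn4* (only fl/fl), *Cldn5* and *Muc2* (overlapping peaks) and *Cldn15* (the strongest ΔIE peak). Each is the 250 bases before the RefSeq TSS in GRCm38.p6, a build whose positions differ from those of the peak lists, and reads 5′ to 3′ on the strand of the gene. They lie at chr16:26371840-26372089 (minus strand), chr5:134946935-134947184 (minus), chr16:18776597-18776846 (plus), chr5:136967619-136967868 (plus) and chr7:141690090-141690339 (plus). Capitals mark a GC box (GGGCGG or CCGCCC), an E-box of the Snail type (CACCTG or CAGGTG) or a TATA box (TATAAA or TTTATA), searched on both strands.
Cldn1: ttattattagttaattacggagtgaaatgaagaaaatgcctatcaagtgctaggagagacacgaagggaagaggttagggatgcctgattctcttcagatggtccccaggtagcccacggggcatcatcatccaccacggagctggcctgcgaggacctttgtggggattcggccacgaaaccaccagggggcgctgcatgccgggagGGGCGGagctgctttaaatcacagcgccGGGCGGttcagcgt
Cldn4: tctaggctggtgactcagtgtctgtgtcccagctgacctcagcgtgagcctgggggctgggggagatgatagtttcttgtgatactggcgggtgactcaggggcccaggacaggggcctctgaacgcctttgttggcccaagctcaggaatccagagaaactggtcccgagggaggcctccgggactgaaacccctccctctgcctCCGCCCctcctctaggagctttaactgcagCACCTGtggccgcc
Cldn5: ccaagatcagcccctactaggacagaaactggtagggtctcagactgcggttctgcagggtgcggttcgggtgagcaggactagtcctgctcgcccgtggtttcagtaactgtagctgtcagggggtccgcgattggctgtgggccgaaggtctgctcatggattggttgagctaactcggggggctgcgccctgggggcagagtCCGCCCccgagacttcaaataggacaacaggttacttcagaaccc
Cldn15: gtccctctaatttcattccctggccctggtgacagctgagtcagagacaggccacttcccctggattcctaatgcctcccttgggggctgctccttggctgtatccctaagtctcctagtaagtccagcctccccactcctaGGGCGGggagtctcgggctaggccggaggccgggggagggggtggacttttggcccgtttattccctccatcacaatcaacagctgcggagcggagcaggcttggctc
Muc2: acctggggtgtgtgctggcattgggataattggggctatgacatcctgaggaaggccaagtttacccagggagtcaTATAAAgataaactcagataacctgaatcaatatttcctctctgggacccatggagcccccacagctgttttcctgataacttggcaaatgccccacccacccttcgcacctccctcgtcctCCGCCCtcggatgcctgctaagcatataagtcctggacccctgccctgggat

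By their distances from the TSS, the fl/fl peaks of *Cldn4* and *Muc2* and the ΔIE peaks of *Cldn5* and *Cldn15* span the whole 250 bases. The peaks of *Cldn1* leave them out in both libraries, and the ΔIE peak of *Muc2* starts downstream of them. All 5 hold a GC box, *Cldn4* also holds an E-box and *Muc2* a TATA box. Promoters were at hand for 36 of the 49 genes. Of their 53 promoters 29 held a GC box, against 32.7% of 32851 promoters, 15 held an E-box, against 17.2%, and 8 a TATA box, against 12.4%. Such a match is a stretch of letters and not a bound site.

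Among the other claudins, *Cldn11*, known from myelin and the testis, had a peak of 3855 bp from 1358 to 5212 bp downstream of the TSS in fl/fl and of 2290 bp in intron 2 in ΔIE. They were 389 bp apart, at 1.01 and 1.06 times the lowest signal of their lists (log2 ratio -0.75). *Cldn14*, a claudin of the inner ear and kidney, had 2 peaks summing to 8668 bp in fl/fl and 3 summing to 13302 bp in ΔIE (log2 ratio 0.62). All lay 3944 bp or more upstream of the TSS used. That TSS belongs to a short transcript of a gene 89.8 kb long, so these distances do not place the peaks outside the gene. The ΔIE peak of 6190 bp is labelled as intron 1 of *Cldn14*. A pair of the peaks shared 1683 bp in an intron of *Gm31012*. *Cldn18*, a claudin of stomach and lung, had a promoter peak of 4258 bp in ΔIE, at 1.17 times the lowest signal. *Cldn10* had a peak of 6009 bp over exon 4 of 5 and *Cldn12* one of 4340 bp, both in fl/fl only. That of *Cldn12* was at 1.01 times the lowest signal.

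Of the tight junction membrane proteins that are no claudins, *Marveld2* (tricellulin, which seals the corners where cells meet) had a promoter peak of 4051 bp in fl/fl, from 4024 bp upstream to 26 bp downstream of the TSS. *Ocln* (occludin), which lies beside it, had no peak in either library. *Marveld3* and *F11r* (junctional adhesion molecule A) had peaks of 3616 and 3539 bp at their 3′ ends in ΔIE only. *Cldn2*, *Cldn7*, *Cldn8*, *Cldn23*, *Jam2* and *Jam3* had none by annotation. Among these are the pore-forming claudin *Cldn2* and the colonic claudins *Cldn7* and *Cldn8*, which may carry signal under the limit of the lists.

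Of the 11 scaffold and polarity proteins, 6 had a peak in fl/fl and 8 in ΔIE. *Tjp1* (ZO-1), the scaffold that links claudins to actin, had 2 peaks in each library, all in intron 2. Those of fl/fl were 7931 and 3512 bp wide (chromosome 7, 65067476 to 65075406 and 65123227 to 65126738). Those of ΔIE were 5174 and 1927 bp wide (chromosome 7, 65092817 to 65097990 and 65147438 to 65149364), 17410 and 20699 bp from the nearest fl/fl peak. No peak annotated to it lay at a promoter, and the log2 ratio of the lengths was -0.69.

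*Tjp3* (ZO-3) had a promoter peak of 2993 bp and a peak of 3607 bp over exon 7 in ΔIE. The promoter peak was at 1.02 times the lowest signal. In fl/fl a peak of 5201 bp that shared 1932 bp with the exon 7 peak was annotated to *Mir3057*, so inside *Tjp3* both libraries carried a call. *Cgnl1* (paracingulin), an adaptor of tight and adherens junctions, had 1 peak of 3578 bp in fl/fl and 4 summing to 12596 bp in ΔIE, among them a promoter peak of 3163 bp (chromosome 9, 71676185 to 71679347). The fl/fl peak in intron 8 was 1385 bp from one of the ΔIE peaks. Its log2 ratio of 1.82 was the highest among the barrier genes.

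The Magi scaffolds are among the longest genes of the list. *Magi1* had a peak of 5877 bp in intron 1 in fl/fl and, in ΔIE, a promoter peak of 3290 bp and an intron 1 peak of 2755 bp (log2 ratio 0.04). Its promoter peak was at 1.003 times the lowest signal. *Magi2* had 5170 bp in fl/fl and 2722 bp in ΔIE, both in intron 6 (log2 ratio -0.93). *Magi3* had a promoter peak of 4856 bp in ΔIE (chromosome 3, 104127091 to 104131946). None of these overlapped between the libraries. With peaks inside the genes that carry another name, *Magi1* had 25113 bp in fl/fl and 14706 bp in ΔIE (log2 ratio -0.77), and *Magi2* 19025 and 23452 bp (0.30). *Magi1* then counted as less length and *Magi2* as within the limit, the reverse of their annotated peaks.

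Of the polarity genes, *Pard6b* was counted as less length in ΔIE and *Pard3* was within the limit. *Pard3*, the core of the Par complex, had 3 peaks in each library, summing to 13744 bp in fl/fl, the greatest annotated length of any barrier gene there, and to 9962 bp in ΔIE (log2 ratio -0.46), with no overlap. *Pard6b*, its partner, had an intron 2 peak of 6281 bp in fl/fl (chromosome 2, 167932452 to 167938732), and the ΔIE peak of 2783 bp lay wholly inside it (log2 ratio -1.17). *Cgn*, *Patj* and *Afdn* had no annotated peak.

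Of the 5 adherens junction and adhesion genes, 2 had an annotated peak in fl/fl and 4 in ΔIE, against 30.9% and 32.9% of all protein-coding genes, and none of them was counted as less. *Cdh17*, the cadherin of intestinal epithelium, was the only barrier gene with 2 overlapping pairs. Upstream of it, peaks of 4997 bp in fl/fl (chromosome 4, 11732355 to 11737351) and 5631 bp in ΔIE (11731726 to 11737356) shared 4997 bp, the whole of the narrower one. Over exon 13, peaks of 6103 bp and 4147 bp shared 3558 bp, with maxima 114 bp apart. ΔIE also had a promoter peak of 3842 bp (11762126 to 11765967), which gave 11100 bp in fl/fl and 13620 bp in ΔIE (log2 ratio 0.30).

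*Cdh1* (E-cadherin), which holds epithelial cells together, had 1 peak of 5765 bp in fl/fl and 2 of 4765 and 2558 bp in ΔIE. All lay in intron 2 and the nearest were 5830 bp apart (log2 ratio 0.35). *Ctnna1* (alpha-catenin), which couples cadherin to actin, had 3 exon peaks in ΔIE, summing to 8988 bp, and none in fl/fl. *Epcam*, an adhesion protein of epithelial cells, had 3063 bp in ΔIE, 5821 bp upstream of the gene and at 1.06 times the lowest signal. *Ctnnd1* (p120 catenin) had no peak.

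Of the 6 desmosome genes, 3 had a peak in fl/fl and 3 in ΔIE, and only *Pkp3*, a plakophilin of epithelia, had overlapping ones. Its promoter peak was 7217 bp wide in fl/fl (chromosome 7, 140654078 to 140661294), reached 4064 bp upstream of the TSS and ranked 1417 of 19976. The ΔIE peak of 3111 bp (140660585 to 140663695) began inside the gene and shared 710 bp with it, with maxima 6104 bp apart. The log2 ratio of -1.21 was the lowest among the barrier genes.

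*Dsg2*, the desmoglein of the intestine, had 4170 bp at its 3′ end in fl/fl and 3707 bp in intron 1 in ΔIE (log2 ratio -0.17). *Dsp* (desmoplakin), which ties desmosomes to keratin, had an annotated peak of 6135 bp in fl/fl only, 14827 bp upstream of the gene, while a ΔIE peak of 2847 bp over its exons was annotated to *Snrnp48* (log2 ratio -1.11 with it). *Jup* (plakoglobin) had 3004 bp over exon 8 in ΔIE only, at 1.03 times the lowest signal. *Dsc2* and *Pkp2* had no annotated peak.

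Mucus genes had peaks at 4 of 7 in fl/fl and 3 of 7 in ΔIE. *Muc2*, the gel-forming mucin of the colon, was covered over 9018 bp in fl/fl and 15304 bp in ΔIE, the greatest annotated length of any barrier gene in that library (log2 ratio 0.76). In fl/fl this was 1 peak across the TSS, from 5263 bp upstream to 3754 bp downstream (chromosome 7, 141271320 to 141280337), which ranked 737 of 19976 and was the strongest peak of the barrier genes there. In ΔIE it was 4 peaks along the gene, of 4278, 3248, 4015 and 3763 bp, the nearest to the TSS starting 1813 bp downstream (141278396 to 141282673).

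The promoter peaks of *Muc2* shared 1942 bp, and their maxima were 4989 bp apart. The fl/fl list had no peak over the gene body beyond the promoter peak, and the ΔIE list none at the TSS itself. *Muc2* was thus counted as more length in ΔIE while the promoter call was narrower there, so the length of a gene and its promoter went opposite ways.

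*Tff3*, the trefoil peptide that goblet cells secrete with Muc2, had 3784 bp in fl/fl and 9807 bp in ΔIE (log2 ratio 1.37). Of these, the overlapping pair (3655 bp shared, maxima 329 bp apart) and 1 more ΔIE peak lay in exons of *Abcg1*, a cholesterol exporter downstream of it, and so were given to *Tff3* by distance alone. The ΔIE promoter peak was 1874 bp wide, at 1.02 times the lowest signal. *Muc1*, a membrane mucin, had overlapping peaks of 4524 and 3645 bp at and past its 3′ end, with 3645 bp shared, the whole of the ΔIE peak (log2 ratio -0.31).

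*Agr2*, a disulfide isomerase needed to fold mucins, had 3708 bp at its 3′ end in fl/fl only, at 1.09 times the lowest signal. *Muc4*, *Muc13* and *Fcgbp*, the last a protein cross-linked into mucus, had no annotated peak.

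**Figure D4:**
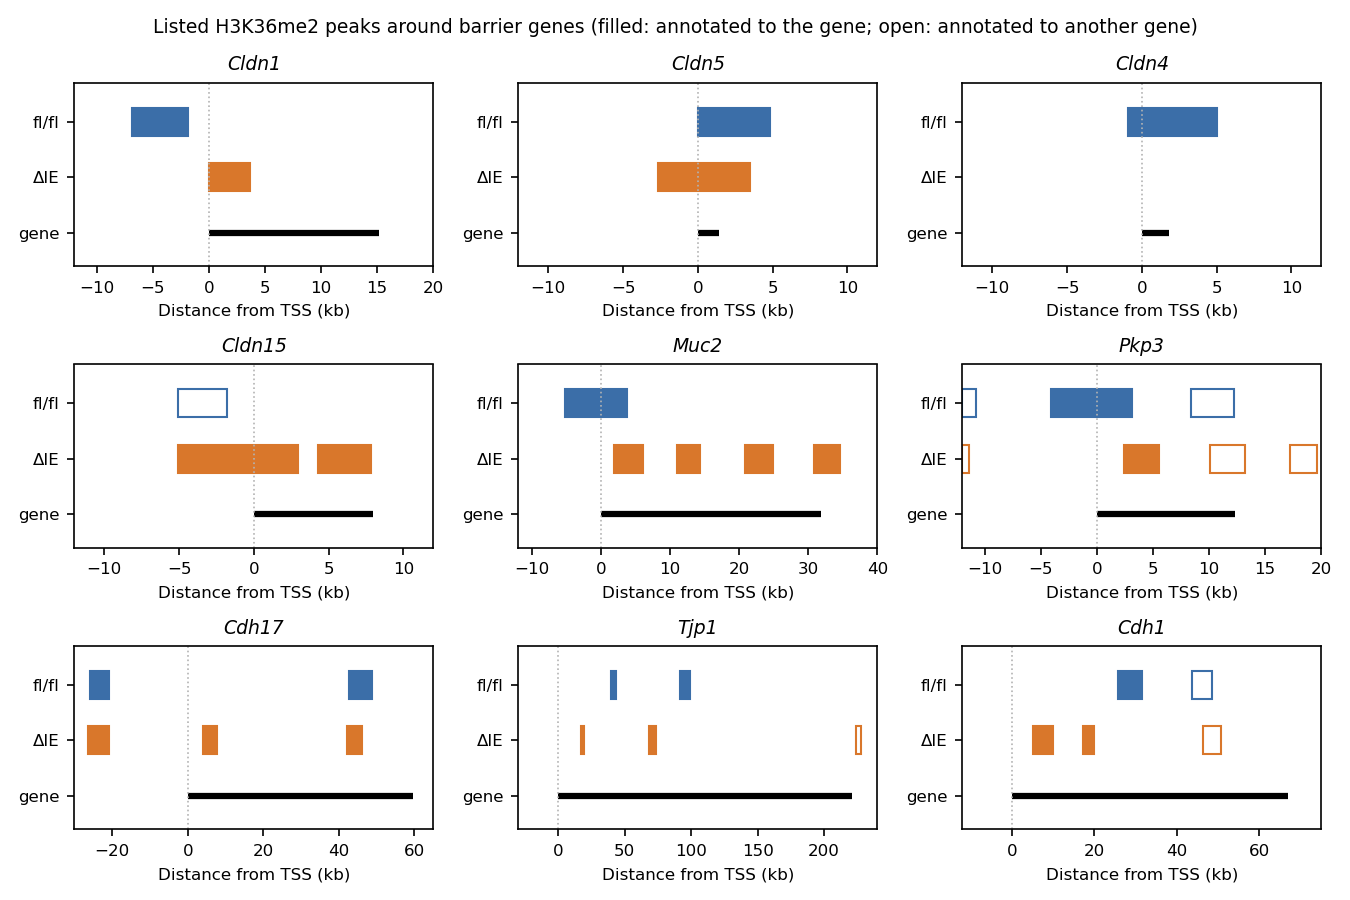
Listed peaks around 9 barrier genes against distance from the most upstream annotated TSS in kb (horizontal axis, gene running to the right), in fl/fl (blue, upper row) and ΔIE (orange, middle row), above the extent of the gene (black). Filled bars are annotated to the gene and open bars to another gene. At *Muc2* 1 wide bar over the TSS stands against 4 bars along the gene, *Cdh17* has paired bars, and the bars of *Cldn1* and *Tjp1* do not overlap.

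Peaks are given to the nearest TSS, so some peaks inside these genes carry another name. By the feature label, 11 such peaks in fl/fl and 20 in ΔIE lay in an exon or intron of a barrier gene. *Cdh1* had an overlapping pair of 4909 and 4311 bp over its exons annotated to *Tango6*. *Magi1* had 5 and 3 such peaks, with an overlapping pair of 3724 and 2913 bp annotated to *Gm23035*, *Magi2* 3 and 6, and *Patj* 1 and 2, where *Patj* itself had no annotated peak. *Jam3* gained a peak in fl/fl, and *Muc13*, *Pkp2* and *Dsp* gained one in ΔIE. With these added, 25 barrier genes (51.0%) had a peak in fl/fl and 30 (61.2%) in ΔIE, and 13 had none in either by these labels. Only exon and intron labels were read. The fl/fl peak inside *Tjp3*, labelled as a promoter peak of *Mir3057*, was therefore left out. Counted so, 34.3% and 37.0% of all protein-coding genes had a peak. The greatest lengths were then those of *Magi1* in fl/fl and of *Magi2* in ΔIE, followed there by *Cgnl1* with 19571 bp.

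The list of other genes of these structures, 83 of them known to the RefSeq table, had peaks at 35 in fl/fl and 36 in ΔIE. Of all protein-coding genes, 30.9% and 32.9% had one. In covered length 21 of the 46 with a peak were counted as less in ΔIE, 16 as more and 9 as neither. Of all genes with a peak, 43.3% were counted as less and 39.7% as more. The 5 with overlapping promoter peaks and the greatest lengths were the adhesion receptor *Nectin1* (36357 bp in fl/fl and 19830 bp in ΔIE), the gel-forming mucins *Muc5b* (21185 and 24411 bp) and *Muc6* (16743 and 9341 bp), the plakophilin *Pkp1* (17323 and 17578 bp) and the plakin *Ppl* (8859 and 9307 bp). Of the cell type markers, 8 of 16 epithelial genes had a peak in each library, against the same 30.9% and 32.9% of all protein-coding genes. For stromal markers it was 7 of 16 in each library, for immune markers 4 and 5 of 16, and for neural or glial markers 4 and 5 of 9. Peaks were thus called at genes of every cell class of the tissue, and the part of these cells in the peaks of the barrier genes was not tested.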

How the data were processed

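H3K36me2 CUT&Tag was performed by the authors on colon tissue with an antibody to H3K36me2, and 1 library per genotype was sequenced. The submitters' processing notes name Bowtie2, SEACR, ChIPseeker and deepTools without versions. They also name the human build hg38, although the positions are those of mouse chromosomes. The build of the lists is not given in the sources used here. Of 13259 transcripts also in a GRCm38.p6 table, 7717 had the same gene length and 134 of these the same start, so the lists use another build and positions are printed as listed. Peaks were called in each library separately, and the authors deposited for each its position, nearest gene, genomic feature and summed signal, with no stated scaling to depth. The read depth is unknown, so the signal served only within a list.

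The members and the other gene lists were chosen with earlier results of these data known. Peaks were assigned by the authors' nearest gene. Genes named with full values are *Tjp1*, *Ocln* and *Cldn1* to *Cldn3*, those with overlapping or promoter peaks and the 3 with the greatest length per library, and at most 5 other genes of the pathway. Overlaps of at least 1 bp, lengths and exact binomial (Clopper-Pearson) 95% intervals were computed with Python 3.11.15, pandas 2.3.3, numpy 2.4.6 and scipy 1.17.1, and the functions were tested on simulated data. Figures were drawn with matplotlib 3.10.9. Gene lengths and promoter sequences are from RefSeq (GRCm38.p6). The alternatives were the strongest 50% of each list, equal numbers of peaks, gene spans, promoter peaks only, a promoter of 1 kb, a reciprocal overlap, peaks within 1 kb counted as shared, shares of length, summed signal, centred ratios and a log2 limit of 1. The genotypes were not tested against each other, having 1 library each.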

Additional observations from a re-analysis of the deposited data

How the results depend on the processing

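No paired analysis was possible because there was a single library of fl/fl and of ΔIE, which also left no replicate to leave out. Of 74 alternative values, 51 moved by less than the limit set for them, 20 moved further and 3 changed sign. With the strongest 50% of each list, 13 barrier genes had a peak in fl/fl and 15 in ΔIE, 8 in both and 29 in neither, with 7 counted as less length, 7 as more and a median log2 ratio of -0.040. All genes with a peak then numbered 7310 and 8181, with 5155 counted as less, 4963 as more and a median of -0.375. With promoter peaks only, 7 and 12 genes had a peak, 4 in both, 3 in fl/fl only and 34 in neither, with 5 counted as less, 8 as more, 2 as neither and a median of -0.78 over 4 genes. All genes with a promoter peak numbered 5818 in fl/fl and 5791 in ΔIE, with 4571 counted as less, 3787 as more and a median of -0.43. A log2 limit of 1 left 13 barrier genes within it, and 5419 of all genes with a peak. The median log2 ratio was -0.31 with equal numbers of peaks and -0.21 with summed signal, against -0.36 and -0.31 over all genes. The barrier gene median changed sign to 0.088 by gene span and to 0.12 when peaks inside the gene were added (chosen after seeing the data). It also changed sign to 0.15 when ratios were centred on the median of all genes. A gene span covered the transcripts named for a gene in the peak lists and 3 kb upstream. It was drawn only for the 32 barrier genes with an annotated peak and could be shorter than the gene. The median of all genes was -0.37 by gene span and -0.31 with peaks inside the gene, and centring sets it to 0. So the sign of the barrier gene median depends on the assignment of peaks and on the scaling. Counting by gene span, *Cldn15*, *Tjp3*, *Magi3* and *Marveld2* had a peak in both libraries, *Dsp* and *Tff3* only in ΔIE, *Muc1* only in fl/fl, and *Cldn14* and *Epcam* in neither. For *Cldn14* the span covered only a short transcript. It left out a ΔIE peak of 6190 bp that is labelled as intron 1 of *Cldn14*. *Magi1* then had less length in ΔIE (log2 ratio -1.02) and *Magi2* was within the limit (0.48). With a reciprocal overlap of at least 50%, 10.6% of the ΔIE peaks had a partner, against 13.4% of all peaks, and 17.9% of the fl/fl peaks, against 15.8%.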
